A study of Mus musculus with 16 samples.

Results

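Potassium channels that repolarize the membrane were examined through 7 genes, Kcna1, Kcna2, Kcnab2, Kcnb2, Kcnc1, Kcnq3 and Kcns3. They were chosen by name, as subunits of delayed rectifier and M-type channels, with earlier results of these data known. By Ensembl identifier they were matched to the 25006 genes of the count tables. All 7 had counts in every mouse, and all 7 passed the filter on low counts that left 12390 genes to test. The libraries came from the substantia nigra of 16 mice at postnatal day 45, 1 library per mouse. The genotype was DAT-Cre+/- in the 8 control mice, and in the 8 mice called MCU-KO it was DAT-Cre+/- MCU fl/fl. MCU is the pore of the mitochondrial Ca2+ uniporter, and the floxed gene was deleted by a Cre recombinase expressed from the dopamine transporter gene (Slc6a3, DAT), which is active in dopaminergic neurons. Mice of both groups carried DAT-Cre and received, 30 days before collection, a viral RiboTag vector that needs Cre to be expressed. RiboTag places a tag on a ribosomal protein, so that polyA RNA bound to tagged ribosomes can be pulled down from dissected tissue. The control mice were bred from DAT-Cre and C57/BL6 parents rather than from the floxed colony, and the colony and the deletion cannot be told apart.

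Library totals were between 18999107 and 22016362 counts in control mice and between 14129527 and 20582204 in MCU-KO mice. The 16 libraries were all different from each other, and 3 counts, taken as the smallest detectable amount, corresponded to between 0.136 and 0.212 CPM (counts scaled to library size). Mcu had 120 to 828 normalized counts in control mice (median 401) and 5.82 to 410 in MCU-KO mice (median 246), and its groups overlapped (edgeR log2 fold change -1.19, 95% confidence interval -2.41 to 0.04, adjusted p = 1.00). This value counts reads over the whole gene, so any from exons that remain after the deletion or from other cells are included. How much each contributed was not tested. The 11 dopaminergic markers, Th and Slc6a3 among them, were detected in every mouse, with a summed level of 13970 to 17619 CPM in control mice and 12328 to 19848 CPM in MCU-KO mice. RNA of other cells was also present. The summed level was 2917 to 5801 CPM in control mice and 3512 to 6811 CPM in MCU-KO mice for 8 oligodendrocyte markers, and 752 to 1336 CPM and 885 to 1500 CPM for 7 astrocyte markers. For 6 GABAergic markers it was 279 to 552 CPM and 288 to 483 CPM. Fewer cells of a type and less RNA per cell cannot be told apart in such libraries.

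Delayed rectifier channels open with a lag when the membrane depolarizes, and the K+ that leaves through them ends the spike and sets how quickly the next can follow. Their pores are tetramers, built from Kv1, Kv2 or Kv3 subunits, while silent subunits form no working channel alone and change the Kv2 channels that they join. KCNQ subunits form the M current, a slow K+ current that opens near the spike threshold and damps repetitive firing, and that is closed when muscarinic receptors lower the membrane lipid PIP2. Dopaminergic neurons of the substantia nigra fire without synaptic drive as autonomous pacemakers, and K+ channels of these families shape the interval between their spikes.

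Among the 7 genes, Kcna1 encodes Kv1.1 and Kcna2 encodes Kv1.2, low-threshold pore subunits found along axons. Kcnab2 encodes Kvβ2, a cytoplasmic protein of the aldo-keto reductase fold that binds Kv1 pores, promotes their delivery to the membrane and binds NADPH. Kcnb2 encodes the Kv2.2 pore, Kcnc1 the fast Kv3.1 pore, Kcnq3 the Kv7.3 subunit of the M channel, and Kcns3 the silent subunit Kv9.3. The selectivity filter is the narrow part of the pore that passes K+ and holds back Na+. Its coding sequence is shown here because it marks which of the 7 genes are of the pore type. It is given for the 6 pore-type genes, 5′ to 3′ on the coding strand, with the 5 filter codons in capitals (threonine, then valine, isoleucine or leucine, then glycine, tyrosine and glycine). The sequences were read from GENCODE M21 transcripts on GRCm38.
Kcna1: tccatgaccACTGTGGGATACGGTgacatg
Kcna2: tccatgacaACTGTAGGCTATGGAgacatg
Kcnb2: accatgaccACTGTGGGCTACGGTgacatt
Kcnc1: accatgacgACACTGGGCTATGGAgacatg
Kcnq3: acactggccACCATTGGTTATGGAgacaag
Kcns3: agtatgaccACAGTGGGCTATGGAgacacc

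These stretches lay within coding exons, at chr6:126642222-126642251 on the minus strand for Kcna1 (exon 2), chr3:107105215-107105244 on the plus strand for Kcna2 (exon 3) and chr1:15710037-15710066 on the plus strand for Kcnb2 (exon 2). They lay at chr7:46427964-46427993 on the plus strand for Kcnc1 (exon 2), chr15:66023725-66023754 on the minus strand for Kcnq3 (exon 6) and chr12:11091569-11091598 on the minus strand for Kcns3 (exon 3). Of the 30 bases, 3 differed between Kcna1 and Kcnb2, the fewest of any pair, and 5 differed between the 2 Kv1 genes. Those 5 left the encoded amino acids the same, whereas Kcna1 and Kcnb2 differed in the amino acids encoded. Base counts over so short a stretch therefore do not rank how related the genes are. Kcnq3 differed in the most bases, with 11 different from Kcna1 and from Kcnb2. The silent subunit Kcns3 carried the filter codons as the working pores do, while the accessory subunit Kcnab2 held no match. An in-frame match was found in 64 of 21562 protein-coding genes (0.297%), of which 55 have symbols that begin with Kcn. Little sequence was shared with other genes beyond such short stretches. Of all 50-base stretches in their transcripts, 1.33% in Kcnab2, 0.585% in Kcnc1 and 0.515% in Kcna2 also occurred in another gene, with under 0.1% in the other 4. The exons of Kcnab2 overlapped those of Gm16334 on the same strand over 125 bases, and the other 6 genes overlapped none.

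How strongly each subunit gene was represented was first asked in control mice. Levels of different genes were compared only per length, as normalized counts per kb of exon, where normalized counts are counts divided by a size factor for the library. By this measure Kcns3 and Kcnab2 were the most abundant, Kcna2 and Kcnc1 were intermediate, and Kcna1, Kcnq3 and Kcnb2 were low. Kcns3, the silent subunit, had 827 ± 285 normalized counts per kb (mean ± SD, n = 8 mice), higher than 87.9% of all genes tested. Kcnab2, the Kv1 accessory subunit, followed with 459 ± 68.8 (80.2%) and exceeded each pore-type gene of the set except Kcns3. Kcna2 had 220.4 ± 47.7 (66.8%) and Kcnc1 had 159 ± 39.3 (59.4%), so that these axonal and fast-spiking pores were above the median gene, which had 106. The others lay below that median, Kcna1 at 98.7 ± 41.7 (48.3%), Kcnq3 at 86.6 ± 24.2 (45.2%) and Kcnb2 at 55.8 ± 23.5 (34.8%). Division by length sets this placement for the long transcripts, since by normalized counts alone Kcnq3 was higher than 72.4% and Kcnb2 higher than 62.2% of all genes tested. Without that division Kcna2 (86.4%) lay level with Kcns3 (86.4%) and Kcnab2 (86.0%), and Kcnc1 was at 76.2%.

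**Figure D1:**
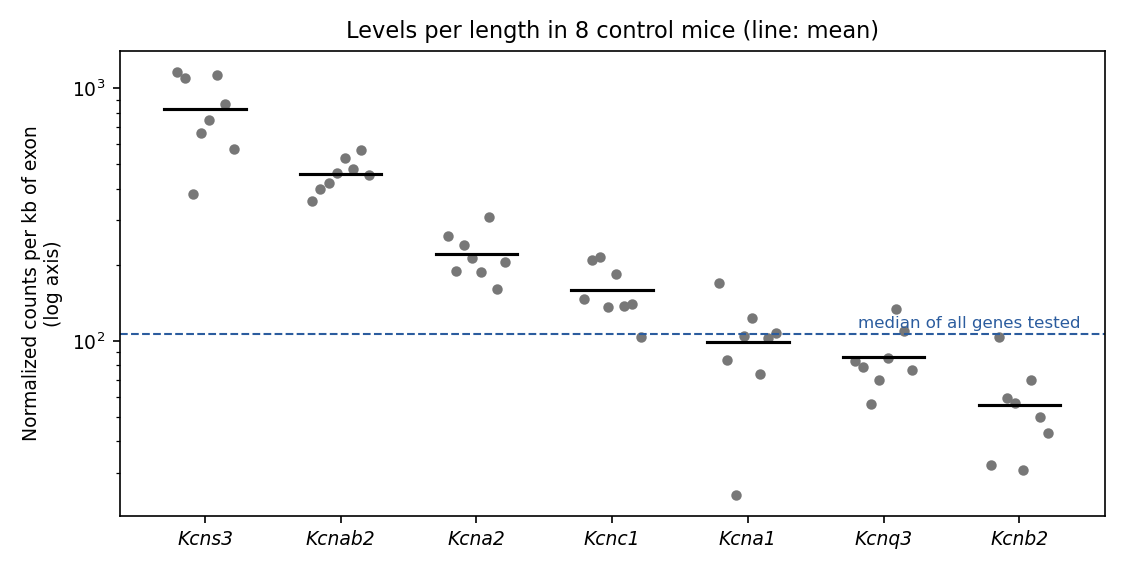
Normalized counts per kb of exon (log axis) of the 7 genes in each of 8 control mice, in descending order of the mean (black line), with the median of all genes tested as a dashed line. Kcns3, Kcnab2 and Kcna2 lie above that median in every mouse, and Kcna1 shows 1 mouse far below the others.

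Neighbours in this order were compared within each mouse by the log2 ratio of their levels per kb, with an exact sign-flip permutation test over 256 sign patterns (two-sided, Benjamini-Hochberg over 6 pairs). The order and its pairs came from the means of these same 8 mice, so the p-values do not independently test the order. Kcns3 exceeded Kcnab2 in 7 of 8 mice, with a mean log2 ratio of 0.78 ± 0.63 (SD, exact p = 0.0156, adjusted p = 0.0469). Kcnab2 exceeded Kcna2 in 8 of 8 mice, by 1.07 ± 0.45 (exact p = 0.0078, the smallest p that this design allows, adjusted p = 0.0469). Thus the accessory subunit was above the more abundant Kv1 pore of the set in each control mouse by this measure of length. Kcna2 exceeded Kcnc1 in 7 of 8 mice, by 0.48 ± 0.49 (exact p = 0.0234, adjusted p = 0.0469), and Kcnc1 exceeded Kcna1 in 6 of 8, by 0.81 ± 1.05 (exact p = 0.0312, adjusted p = 0.0469). Per kb of exon, the order of the last 3 genes was not resolved. Kcna1 and Kcnq3 differed by 0.08 ± 0.76 (exact p = 0.773, adjusted p = 0.773), and Kcnq3 over Kcnb2 missed the threshold at 0.69 ± 0.68 (exact p = 0.0469, adjusted p = 0.0562). The length chosen moved both the order and the calls. Per kb of the longest coding sequence, Kcnab2 had the highest mean (2234 normalized counts per kb) above Kcns3 (1777), Kcna2 lay close to Kcns3 (1753), and Kcnq3 (486) lay above Kcna1 (318). With that length Kcns3 no longer exceeded Kcnab2 (log2 ratio -0.40, exact adjusted p = 0.117), Kcnab2 exceeded Kcna2 in 6 of 8 mice without passing (0.36, exact adjusted p = 0.0562), and the reversed order of Kcna1 and Kcnq3 passed (-0.73, Kcna1 higher in 1 of 8 mice, exact adjusted p = 0.0312). Per kb of the longest transcript the order of the means was kept, but Kcns3 over Kcnab2, Kcna2 over Kcnc1 and Kcnc1 over Kcna1 no longer passed, and Kcnq3 over Kcnb2 did (exact adjusted p = 0.0469).

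Within their own families, 6 of the genes were then given as a share of the summed normalized counts per kb of all listed family members, which needs no library size. Kcns3 and Kcnab2 dominated their families, and the other genes described did not. In control mice Kcns3 made up 79.7 ± 9.39% of the 10 silent subunit genes (SD, n = 8), with 66.1 to 90.2% in single mice. Kcnab2 made up 74.5 ± 12.01% of the 3 Kv1 beta subunit genes, with 52.9 to 91.4% in single mice. Each thus held more than the rest of its family together in every control mouse. Kcnq3 made up 36.5 ± 6.98% of the 5 KCNQ genes. Kcna2 made up 29.5 ± 6.38% and Kcna1 12.9 ± 4.73% of the 8 Kv1 pore genes, in which Kcna6 (Kv1.6) was the highest at 277 ± 70.8 per kb. Kcnc1 made up 28.8 ± 9.61% of the 4 Kv3 genes, below Kcnc4 (Kv3.4, a rapidly inactivating subunit) at 226 ± 66.5 per kb.

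Whether loss of MCU changed these shares was tested by exact permutation of the group labels, with 12870 splits in all (two-sided, Benjamini-Hochberg over the 7 shares tested). None of the 6 shares described differed between the groups beyond the spread among mice, and the lowest adjusted p was 0.416. Kcns3 stood at 87.1 ± 8.26% in MCU-KO mice, a difference of 7.44 percentage points (exact p = 0.115). Kcnq3 stood at 41.2 ± 6.35%, a difference of 4.66 points (exact p = 0.179). Kcnab2 had 68.4 ± 10.4%, a difference of -6.02 points (exact p = 0.297) that was between -9.10 (without control mouse 1) and -3.37 (without MCU-KO mouse 6) when single mice were left out. Kcna2 stood at 32.8 ± 4.76% (exact p = 0.257), Kcnc1 at 31.9 ± 6.42% (exact p = 0.478) and Kcna1 at 13.4 ± 4.24% (exact p = 0.849).

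**Figure D2:**
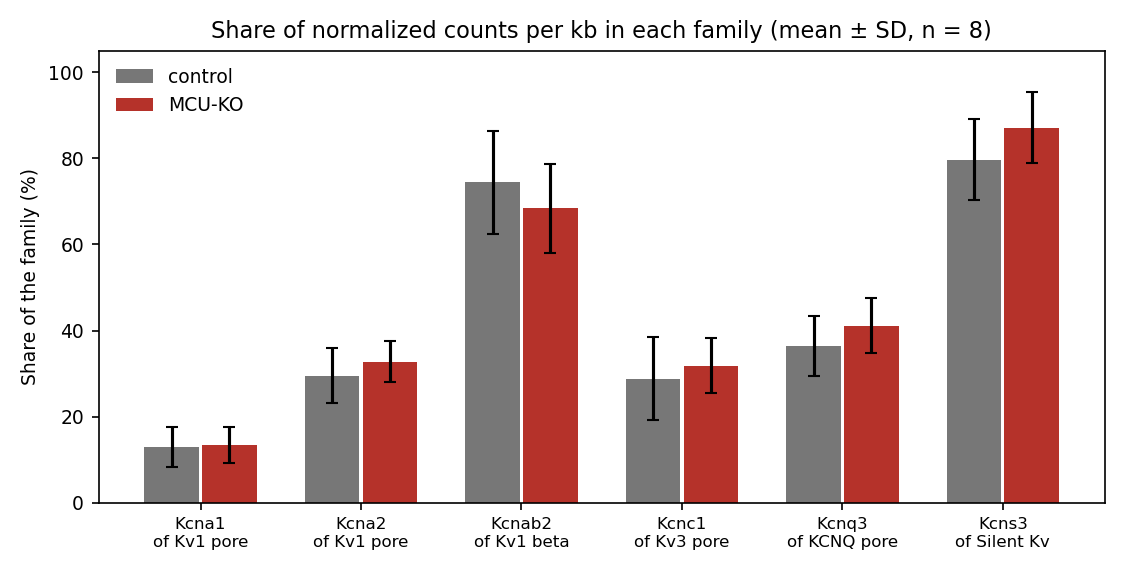
Share (%) of each of 6 genes in the summed normalized counts per kb of its family, as mean ± SD over 8 control (gray) and 8 MCU-KO (red) mice. Kcnab2 and Kcns3 take most of their families in both groups, and the error bars of the groups overlap for all 6 genes.

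The genes were next compared between genotypes, with edgeR's quasi-likelihood test over all 12390 genes and Benjamini-Hochberg adjustment at 0.05. Of the 7 genes, 0 passed, against 0.178% of all genes tested, and 2 of 7, Kcnab2 and Kcnq3, had an unadjusted p under 0.05, against 4.41% of all genes. DESeq2, the tool used in the study, called 1 of 7, Kcnab2, against 0.404% of all genes, and with its own filter on low counts it again called 1 of 7, against 0.557% of all genes. In contrast, limma-voom called 0 of 7, against 0.234% of all genes. The 7 genes were chosen with earlier results of these data known, so these comparisons are a description and not a test of the set. By log2 fold change, 5 of 7 genes were above 0, as were 50.4% of all genes, with a median of 0.16 over the 7 genes and 0.00 over all genes. The normalized counts of the groups overlapped for each of the 7 genes, and they did not overlap for 0.258% of all genes. All 7 confidence intervals lay within a 2-fold change either way, so that a larger change was outside the interval for every gene.

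**Figure D3:**
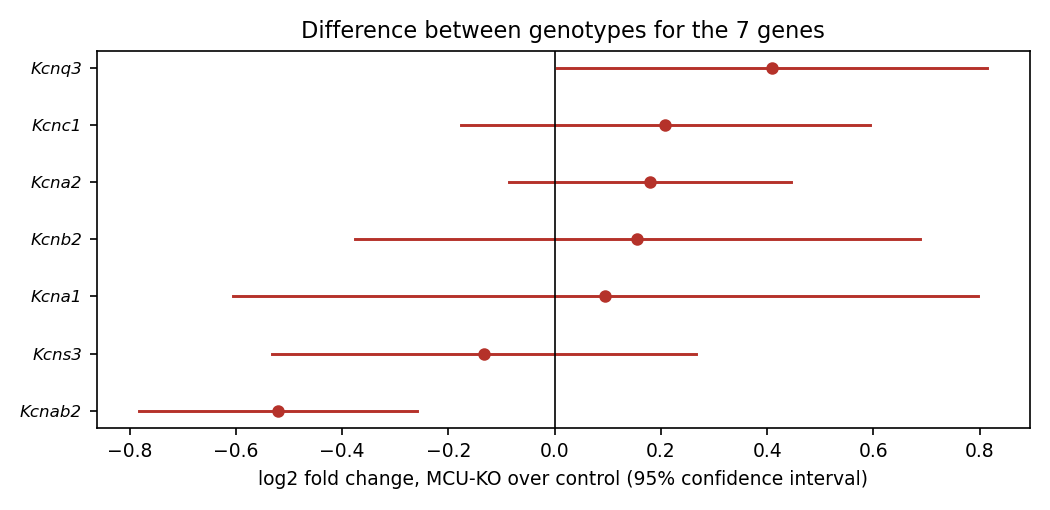
Log2 fold change of MCU-KO over control with its 95% confidence interval for the 7 genes, sorted by value. The interval of Kcnab2 lies wholly below 0, that of Kcnq3 begins at 0.00, and those of the other 5 genes include 0.

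Among the Kv1 subunits, the accessory gene Kcnab2 showed the largest difference of the set. This gene (ENSMUSG00000028931, chr4:152390742-152477871, minus strand) had 1995, 2551 and 3184 normalized counts in the lowest, median and highest control mouse. In MCU-KO mice it had 1504, 1756 and 2256. The groups were nearly apart, with 7 of 8 MCU-KO mice below every control mouse and 6 of 8 control mice above every MCU-KO mouse. Means were 2560 ± 384 and 1785 ± 257 (SD, n = 8), a log2 fold change of -0.52 (SE 0.13, 95% confidence interval -0.78 to -0.26). This corresponds to 0.697 of the control level. The edgeR p ranked 34 of all genes tested (adjusted p = 0.166), so the difference did not pass the threshold in that fit, whereas it passed in DESeq2 (adjusted p = 0.0382) and missed it in limma-voom (adjusted p = 0.126). Leaving out each mouse in turn gave log2 fold changes from -0.58 to -0.47 and edgeR adjusted p from 0.0762 to 0.464. With the summed oligodendrocyte and astrocyte markers as a covariate the log2 fold change was -0.47 (edgeR adjusted p = 0.508), and with the GABAergic markers it was -0.53 (edgeR adjusted p = 0.102).

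**Figure D4:**
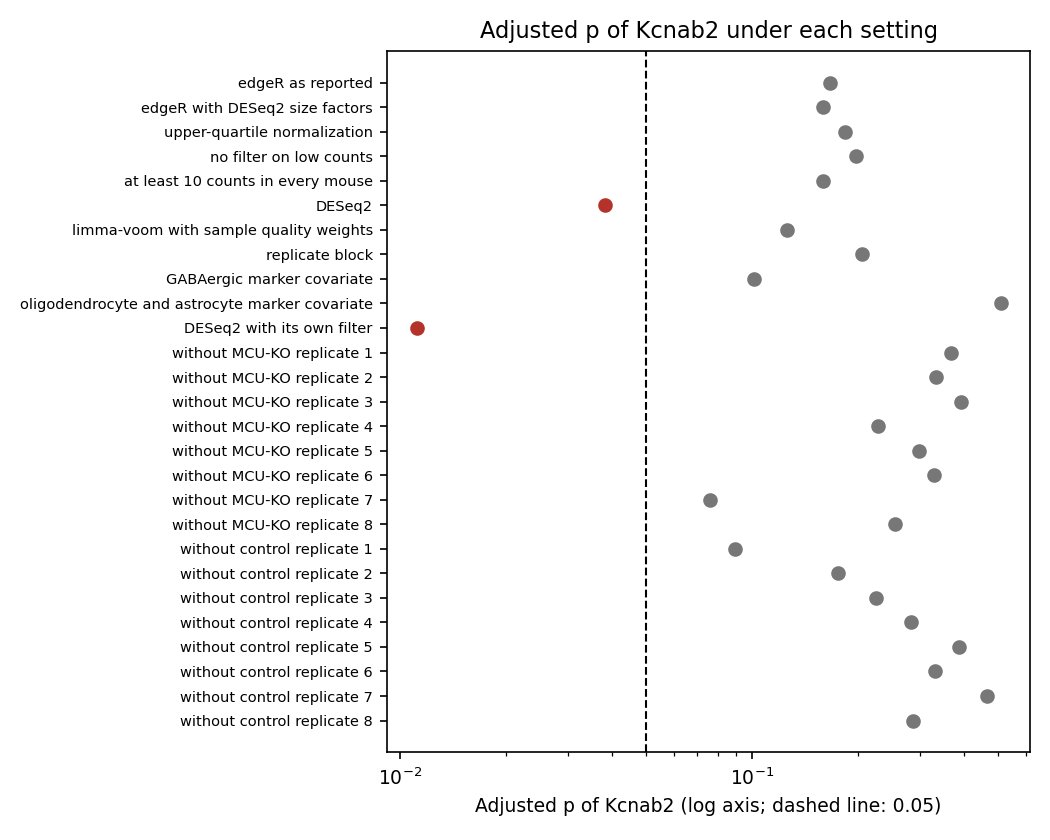
Adjusted p of the difference in Kcnab2 between MCU-KO and control mice (log axis) under each setting, with the threshold of 0.05 as a dashed line and settings past it in red. Both DESeq2 settings lie past the threshold, at 0.0382 and 0.0112, and every edgeR and limma setting lies short of it.

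Kcna2 (ENSMUSG00000040724, chr3:107101146-107115005, plus strand) had 1906, 2491 and 3679 normalized counts in the lowest, median and highest control mouse and 2453, 2903 and 3451 in MCU-KO mice. The MCU-KO mice lay inside the control range. Means were 2624 ± 568 and 2972 ± 305, a log2 fold change of 0.18 (SE 0.13, 95% confidence interval -0.09 to 0.45, edgeR adjusted p = 1.00). The partner pore Kcna1 (ENSMUSG00000047976, chr6:126640397-126646384, minus strand) had 118, 494 and 812 normalized counts in control mice and 273, 429 and 822 in MCU-KO mice. It was the most variable gene of the set in control mice, with a coefficient of variation of 42.2%, and its lowest value was that of control mouse 3. Its log2 fold change of 0.10 (SE 0.34, 95% confidence interval -0.61 to 0.80, edgeR adjusted p = 1.00) turned to -0.05 without that mouse.

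In the Kv2 and Kv3 group, whose channels open at more positive potentials than those of Kv1, no member passed the test. Kcnb2 (ENSMUSG00000092083, chr1:15287254-15723750, plus strand) had 469.6, 811 and 1571 normalized counts in the lowest, median and highest control mouse and 615, 874 and 1534 in MCU-KO mice. The MCU-KO values again fell inside the control range, with a log2 fold change of 0.16 (SE 0.26, 95% confidence interval -0.38 to 0.69, edgeR adjusted p = 1.00). It was 0.023 without MCU-KO mouse 5 and 0.35 without control mouse 2. Kcnc1 (ENSMUSG00000058975, chr7:46396497-46438704, plus strand) had 978, 1354 and 2033 normalized counts in control mice and 1069, 1795 and 2370 in MCU-KO mice. Its groups overlapped over most of their range, with a log2 fold change of 0.21 (SE 0.19, 95% confidence interval -0.18 to 0.59, edgeR adjusted p = 1.00) that became 0.091 with the glial markers as a covariate. The silent subunit Kcns3 (ENSMUSG00000043673, chr12:11090202-11151056, minus strand) had 1204, 2557 and 3667 normalized counts in control mice and 1742, 2469 and 2918 in MCU-KO mice. All its MCU-KO values fell inside the control range, and the log2 fold change was -0.13 (SE 0.19, 95% confidence interval -0.53 to 0.27, edgeR adjusted p = 1.00). It was -0.047 without control mouse 1 and -0.24 without control mouse 3.

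The M-type subunit Kcnq3 (ENSMUSG00000056258, chr15:65986387-66286642, minus strand) had 826, 1191 and 1964 normalized counts in the lowest, median and highest control mouse. In MCU-KO mice it had 956, 1774 and 2296. The MCU-KO median lay above all but the highest control mouse, although the ranges overlapped. Means were 1273 ± 356 and 1692 ± 454 (SD, n = 8), a fold of 1.33 and a log2 fold change of 0.41 (SE 0.20, 95% confidence interval 0.00 to 0.81). The unadjusted p was 0.0480 in edgeR, 0.0520 in DESeq2 and 0.0866 in limma-voom. With adjustment over all genes the difference did not pass (edgeR adjusted p = 1.00). Leaving out each mouse in turn gave log2 fold changes from 0.33 (without MCU-KO mouse 7) to 0.53 (without control mouse 6). The unadjusted edgeR p was 0.111 and 0.0113 in these 2 fits, so single mice moved it to either side of 0.05.

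**Figure D5:**
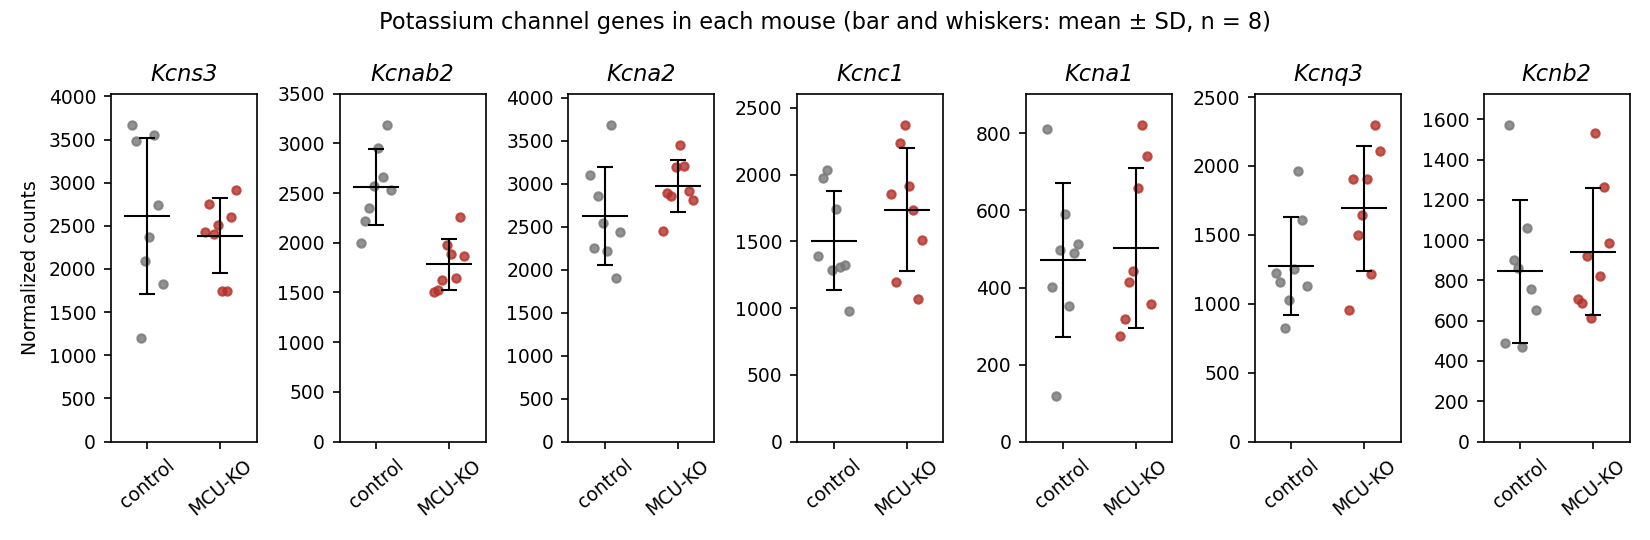
Normalized counts of the 7 genes in each of 8 control (gray) and 8 MCU-KO (red) mice, with mean and SD as bar and whiskers and a separate linear axis from 0 for each gene. Kcnab2 is the gene whose groups overlap least, with 1 MCU-KO mouse inside the control range.

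The other genes of these pathways were taken from lists of Kv1 pore, Kv1 beta, Kv2, silent Kv, Kv3, KCNQ, KCNE and EAG genes, 45 in all with the 7 included. Of these, 26 could be tested and 0 passed in edgeR, against 0.178% of all genes. The 2 with an unadjusted p under 0.05 were Kcnab2 and Kcnq3, against 4.41% of all genes. The log2 fold change was above 0 for 11 and below 0 for 15, with a median of -0.10 against 0.00 over all genes. Kcna7, Kcna10, Kcne1 and Kcne3 had no count in any mouse. In the family of Kcnab2, all 3 beta subunit genes were below 0 (median -0.22), and in that of Kcns3 all 5 tested silent genes were below 0 (median -0.42). Among these genes only Kcnab2 had a confidence interval that excluded 0. Those of Kcnab1 (-1.44 to 1.01) and Kcns2 (-3.08 to 1.08) were wide. Kcnf1, Kcng2, Kcng4 and Kcns2 each lacked counts in at least 1 mouse. The shared sign therefore does not show a fall of either family. Of the Kv1 pore genes, 4 of 5 tested were above 0 (median 0.15), with Kcna6 at -0.30. The smallest p of the silent Kv and EAG families belonged to Kcng4 (log2 fold change -1.58) and Kcnh2 (ERG1, 0.41), each with an edgeR adjusted p of 1.00. Kcne5 was the only tested KCNE gene, an accessory subunit of KCNQ channels, at -0.18.

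Among 15 genes for proteins that anchor, cluster or regulate these channels, 0 passed in edgeR, against 0.178% of all genes. Against 4.41% of all genes, 1 of the 15 had an unadjusted p under 0.05. This was Calm3, 1 of 3 genes that encode calmodulin, the Ca2+ sensor that is bound to KCNQ subunits, with 17522 to 25064 normalized counts in control mice and 15511 to 20381 in MCU-KO mice. Its log2 fold change was -0.29 (edgeR adjusted p = 0.409, DESeq2 adjusted p = 0.0483). The calmodulin gene highest per kb in control mice, Calm2, had 24887 ± 2973 normalized counts per kb.

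The 7 genes also differed in how steady they were among mice. In control mice the coefficient of variation was 15.0% for Kcnab2 and 21.6% for Kcna2, and it was 24.7% for Kcnc1, 27.9% for Kcnq3, 34.5% for Kcns3 and 42.1% for Kcnb2. The median over all genes tested was 42.6%. All 7 were below it, Kcna1 (42.2%) and Kcnb2 only just, and genes of like count level were not compared.

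Likeness among mice was described by Pearson's r of log2 CPM over the 16 mice after the group means were subtracted, each gene against the other 25 tested channel genes. The points share their libraries, and r is given as a description only. Kcnab2 was most like Kcnq3 (r = 0.57), although the log2 fold changes of this pair had opposite signs, and Kcns3 was also most like Kcnq3 (r = 0.54). For the rest the likeness was weaker, with Kcna6 for Kcna1 (r = 0.45), Kcnh6 for Kcnb2 (r = 0.45) and Kcne5 for Kcna2 (r = 0.43). By Spearman's rank correlation these 3 pairs had 0.42, 0.34 and 0.26, and the 2 pairs with Kcnq3 had 0.59 and 0.56. Kcne5 had no count in 2 control mice. For each gene the r given is the highest of 25, and this choice raises it. Over the 21 pairs among the 7 genes, r was between -0.44 and 0.57 with a median of 0.03, so that the set did not vary as a block from mouse to mouse.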

How the data were processed

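Counts per gene were deposited for 16 libraries. Per the labels and methods, the authors trimmed adapters, used STAR for alignment to mm10 and htseq-count with Ensembl gene models for counting, and the deposited counts are whole numbers with no normalization. The submitters' processing notes name Trim Galore, STAR and HTSeq. Tool versions, strandedness and annotation release are not given in the sources used here. The 7 genes and all gene lists were chosen with earlier results of these data known.

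Symbols (24991 of 25006 identifiers), exon lengths and coordinates came from GENCODE M21 on GRCm38, the assembly that mm10 names. The main test was edgeR 4.0.16 in R 4.3.3 (filterByExpr, TMM, glmQLFit, glmQLFTest, two-sided) with Benjamini-Hochberg adjustment over 12390 genes. Normalized counts were counts divided by DESeq2 1.42.0 size factors, and within-mouse ratios used a pseudocount of 1. Alternatives were DESeq2, limma 3.58.1, other normalizations, filters, lengths and pseudocounts, marker covariates, a replicate block, and omission of each mouse. DESeq2 with its own filter was added after seeing the data. Genes named outside the 7 were, per family, the highest per kb in control mice and the smallest p, plus Mcu, Th and Slc6a3. For the 7 genes, the most alike channel gene was also named. Genes named for absent counts, wide confidence intervals or exon overlap were not chosen by this rule. Some results that this rule or the family shares would give are not reported here. Detection limits cover counting error alone, because PCR copies were not marked by molecular identifiers.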

Additional observations from a re-analysis of the deposited data

Results flagged for a closer look

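Dixon's test, applied to 30 groups of 8 mice, singled out 2 values, where chance gives about 1.5. The share of Kcnc1 in the 4 Kv3 genes was 49.9% in control mouse 5, against 18.5 to 32.7% in the other control mice. The library total of MCU-KO mouse 8 was 14129527 counts, against 19897268 to 20582204 in the other MCU-KO mice.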

How the results depend on the processing

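Over all genes, edgeR called 22, DESeq2 50, DESeq2 with its own filter 90 and edgeR with a replicate block 14. Of the 7 genes, 0 were called in edgeR and 1 in DESeq2 and in DESeq2 with its own filter, in both cases Kcnab2 (0.557% of all genes were called with that filter). Of the 45 channel and 15 partner genes listed, 2 (Kcnab2 and Calm3) were called in each DESeq2 setting and 0 in edgeR. The shares over all genes were 0.404% in DESeq2, 0.557% with its own filter and 0.178% in edgeR. Same-numbered mice are different animals, and the numbers did not pair them: over 8 pairs the correlation of deviations was -0.06 to 0.03, and 0 control mice correlated best with their own number. With the replicate block 0 of the 7 genes were called, and Kcnab2 had an edgeR adjusted p of 0.206. Leaving out each mouse in turn gave 18 to 24 calls over all genes, 0 to 0 of the 7 genes and 0 to 0 of the channel lists.

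For neighbours in control mice, the longest transcript gave 0.38 for Kcns3 over Kcnab2, 0.24 for Kcna2 over Kcnc1 and 0.85 for Kcnc1 over Kcna1, which no longer passed, and 0.98 for Kcnq3 over Kcnb2, which passed. The longest coding sequence gave -0.40 for Kcns3 over Kcnab2, 0.36 for Kcnab2 over Kcna2, which no longer passed, and -0.73 for Kcna1 over Kcnq3. These differences follow from the divisor, since the counts were the same. Without single control mice the log2 ratios were 0.65 to 0.91 for Kcns3 over Kcnab2, 0.96 to 1.16 for Kcnab2 over Kcna2, 0.38 to 0.57 for Kcna2 over Kcnc1, 0.48 to 0.95 for Kcnc1 over Kcna1, -0.061 to 0.25 for Kcna1 over Kcnq3 and 0.58 to 0.85 for Kcnq3 over Kcnb2. With 7 mice most of the called pairs no longer passed, with adjusted p up to 0.0938.

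Kcna1 changed sign without MCU-KO mouse 6 (-0.039), MCU-KO mouse 7 (-0.0088) or control mouse 3 (-0.049). Its share difference was -0.91 to 1.39 percentage points when single mice were left out, and it was below 0 without control mouse 3 (-0.91) and without MCU-KO mice 5 (-0.12), 6 (-0.19) and 7 (-0.42). The cause was not tested. The other 6 genes kept the sign of their log2 fold change under all 26 alternatives, and the other 5 shares described kept theirs under all 19. Single mice nevertheless moved several of these uncalled values by more than 1.5 times, with log2 fold changes of 0.023 to 0.35 for Kcnb2, -0.24 to -0.047 for Kcns3 and 0.13 to 0.28 for Kcnc1, and with the glial markers as a covariate Kcna2 was at 0.11. With 8 mice a group, the standard errors of 0.13 to 0.34 on the log2 scale limit what could be seen, most of all for Kcna1.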
